A study of Mus musculus with 2 samples.

Results

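The genes described here are 10 regulators of G protein signalling, Rgs2, Rgs4, Rgs6, Rgs7, Rgs8, Rgs10, Rgs12, Rgs14, Rgs16 and Rgs17, chosen by gene symbol out of 55536 annotated genes of the mouse genome. They have 80 of the 141767 annotated transcripts. The annotation lists 21 genes whose symbol is Rgs and a number, and the other 11 serve as the comparison. Male mice of the hybrid strain B6CASTF1/J, which has B6 and CAST parents, gave the RNA at an age of 18 to 20 months, from the cerebral cortex of the left side. It was sequenced as total RNA in 2 replicate libraries of a single group, from 300 ng of RNA each with ERCC spike-ins. The labels number them as biological replicates 1 and 2, with separate biosample identifiers but the same donor identifier. They do not say whether the tissue came from separate animals, so how much of the spread between the libraries is biological or technical is unknown. No untreated, younger or other comparison group was analysed here. In tissue RNA, fewer cells of a type and less RNA per cell cannot be told apart.

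RGS proteins end signals from G protein-coupled receptors. An activated receptor loads the G alpha subunit with GTP, and the RGS domain speeds the hydrolysis of that GTP, which returns the G protein to its resting state. The family is divided by structure. Members of the R4 class are small proteins with little beside the RGS domain. Members of the R7 class bind the atypical G beta subunit Gnb5 and are held at the membrane by anchor proteins. Members of the R12 class, apart from the short Rgs10, carry further domains for Ras-like proteins and for inactive G alpha, and members of the RZ class bear a string of cysteines near their start. In neurons these proteins set how long dopamine, muscarinic, opioid and GABA-B receptor signals last.

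All 10 genes were detected, which here means a TPM of at least 1 in both libraries, as were 58.5% of nuclear protein-coding genes. The 10 genes were chosen with earlier results of these data known. The comparisons of detection and level with other genes are therefore descriptions and not independent contrasts. TPM is an abundance per transcript length on a scale with a common total, so levels of different genes can be compared. Together the 10 genes held 393 TPM in replicate 1 and 403 TPM in replicate 2. Their median level was 27.0 TPM in replicate 1 and 26.9 TPM in replicate 2, against medians of 16.8 and 15.4 TPM over all detected nuclear protein-coding genes. Of the other RGS genes, 6 of 11 were detected, and these 11 summed to 104 TPM in replicate 1 and 96.3 TPM in replicate 2. The levels thus spanned a wide range, from 1 very abundant gene over a middle group to 1 weakly expressed gene.

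**Figure D1:**
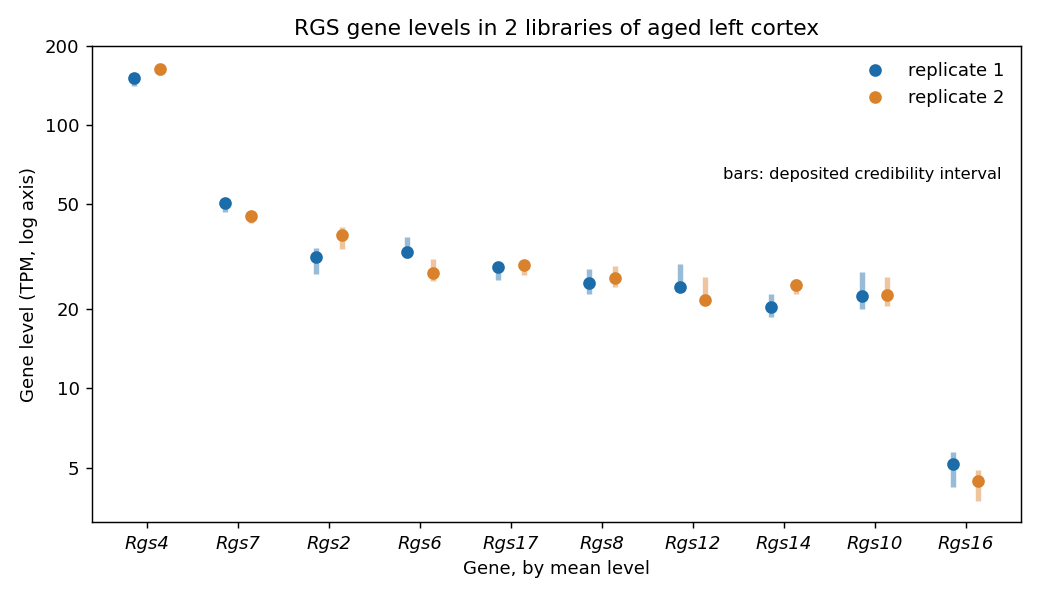
Level of each of the 10 RGS genes in replicate 1 (left point of each pair) and replicate 2 (right point), in TPM on a log axis, with genes ordered by mean level. Vertical bars are the deposited credibility intervals. Rgs4 stands alone at 152 and 163 TPM, 8 genes lie between 20.5 and 50.6 TPM, and Rgs16 lies at 5.17 and 4.44 TPM.

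Rgs4, an R4 member that acts on Gi and Gq subunits, had 152 TPM in replicate 1 and 163 TPM in replicate 2 (157 ± 8.10, SD, n = 2; ENSMUSG00000038530.11, chr1:169741477-169747642, minus strand, GRCm38). It ranked 451st among nuclear protein-coding genes and stood above 96.5% of those detected. It alone held 38.6% of the TPM of the 10 genes in replicate 1 and 40.5% in replicate 2. The deposited intervals were 141 to 149 TPM and 155 to 162 TPM. The Rgs4 TPM lay just above its own interval in both libraries, since the interval goes with the posterior mean, which was 145 TPM in replicate 1 and 158 TPM in replicate 2. This was the case for no other of the 10 genes.

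Rgs2, an R4 member with a preference for Gq, had 31.4 TPM in replicate 1 and 38.2 TPM in replicate 2 (34.8 ± 4.80; ENSMUSG00000026360.9, chr1:143999338-144004161, minus strand). Rgs8, an R4 member of neurons, had 25.1 and 26.3 TPM (25.7 ± 0.86; ENSMUSG00000042671.12, chr1:153653025-153700323, plus strand). Rgs16, an R4 member known for its daily rhythm and its induction by receptor signals, had 5.17 and 4.44 TPM (4.80 ± 0.52; ENSMUSG00000026475.7, chr1:153740349-153745468, plus strand). It was the lowest of the 10 and stood above 18.8% of detected protein-coding genes. The 4 R4 genes summed to 213 TPM in replicate 1 and 232 TPM in replicate 2, against 29.4 and 26.3 TPM for the 6 R4 genes outside the set.

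The start of the coding sequence is shown for Rgs4 and Rgs16, the most and the least abundant of the R4 genes in the set, because both open with the same pair of codons. In mammals, a cysteine exposed directly behind the first methionine makes RGS4 and RGS16 proteins targets of degradation that depends on oxygen. The 36 bases below come from the GENCODE transcripts, with the start codon and the TGC cysteine codon behind it in capitals. They lie at chr1:169747488-169747523 on the minus strand for Rgs4 and chr1:153740469-153740504 on the plus strand for Rgs16.
Rgs4: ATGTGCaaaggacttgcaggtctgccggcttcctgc
Rgs16: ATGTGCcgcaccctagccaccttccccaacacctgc
RNA levels say nothing of the amount of protein that either gene leaves.

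The R7 genes of the set span the most DNA. Rgs7, which with Gnb5 dampens GABA-B receptor signals in neurons, had 50.6 TPM in replicate 1 and 45.1 TPM in replicate 2 (47.9 ± 3.92; ENSMUSG00000026527.13, chr1:175059087-175492500, minus strand). Rgs6, which with Gnb5 limits muscarinic and GABA-B signals in heart and brain, had 33.0 and 27.5 TPM (30.3 ± 3.92; ENSMUSG00000021219.16, chr12:82588292-83162056, plus strand). Both had the higher TPM in replicate 1. They summed to 83.7 TPM in replicate 1 and 72.6 TPM in replicate 2, against 40.4 and 38.6 TPM for Rgs9 and Rgs11, the other R7 genes. Of 5 R7 partner genes 3 were detected. Gnb5 had 67.0 and 71.8 TPM, Rgs7bp, the membrane anchor of the R7 class, 72.9 and 70.4 TPM, and Gpr158, an orphan receptor that binds Rgs7, 50.6 and 48.2 TPM. Rgs9bp and Gpr179, known from the retina, stayed at or below 0.28 TPM.

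Of the R12 genes, Rgs12, a scaffold protein with several domains, had 24.2 TPM in replicate 1 and 21.7 TPM in replicate 2 (23.0 ± 1.82; ENSMUSG00000029101.16, chr5:34949445-35039644, plus strand). Rgs14, known as a limit on synaptic plasticity in hippocampal area CA2, had 20.5 and 24.7 TPM (22.6 ± 3.02; ENSMUSG00000052087.14, chr13:55369732-55384687, plus strand). Rgs10, which is abundant in microglia and also present in neurons, had 22.4 and 22.6 TPM (22.5 ± 0.14; ENSMUSG00000030844.11, chr7:128373621-128418758, minus strand). The 3 genes had nearly the same mean by these values. In a second quantification of the same libraries the means lay farther apart, at 44.5 TPM for Rgs10, 35.7 TPM for Rgs12 and 34.4 TPM for Rgs14. Microglial genes were present beside Rgs10, with all 10 detected and a summed level of 179 TPM in replicate 1 and 180 TPM in replicate 2. Of 9 hippocampal genes 5 were detected. All 9 together summed to 51.2 TPM in replicate 1 and 60.9 TPM in replicate 2, of which Necab2 alone gave 31.6 and 42.6 TPM. Which cells gave the RNA of Rgs10 or Rgs14 was not tested.

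Rgs17, an RZ member that acts on Gz and other Gi subunits, had 28.8 TPM in replicate 1 and 29.4 TPM in replicate 2 (29.1 ± 0.39; ENSMUSG00000019775.17, chr10:5825663-5922400, minus strand). Its RZ relatives Rgs19 and Rgs20 summed to 33.4 TPM in replicate 1 and 30.4 TPM in replicate 2. The substrates were present. Of 8 genes for G alpha subunits of the Gi, Go, Gz and Gq kinds, 7 were detected. Gnao1 led with 317 TPM in replicate 1 and 305 TPM in replicate 2, and Gnaz, the Gz subunit, had 52.0 and 51.6 TPM. Gna14 was not detected, at 0.11 and 0.29 TPM.

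In order of mean level the genes ran Rgs4, Rgs7, Rgs2, Rgs6, Rgs17, Rgs8, Rgs12, Rgs14, Rgs10 and Rgs16. A gene was called higher than another where the deposited intervals of the TPM lay apart, in the same direction, in both libraries. Of 45 pairs, 26 were called by this rule and 19 were not. Rgs4 was above each of the other 9, by 3.29-fold over Rgs7 (a log2 difference of 1.72 ± 0.19, SD, n = 2) and by 32.8-fold over Rgs16 (5.04 ± 0.23). Rgs7 was above each of the 8 genes below it, though its margin over Rgs2 was narrow, 0.46 ± 0.32 on the log2 scale. Rgs16 was below each of the other 9, and its distance to Rgs10, the next above it, was 4.69-fold (2.23 ± 0.16).

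Between Rgs7 and Rgs16 the order was mostly not resolved. Of the 9 neighbouring pairs in the order, 3 were called, namely Rgs4 with Rgs7, Rgs7 with Rgs2, and Rgs10 with Rgs16. Among Rgs2, Rgs6, Rgs17, Rgs8, Rgs12, Rgs14 and Rgs10, only Rgs2 over Rgs14 (1.54-fold) and Rgs17 over Rgs14 (1.29-fold) were called. The second quantification of the same libraries kept the direction of all 26 called pairs and of 40 of all 45. In it Rgs4, Rgs7 and Rgs16 kept ranks 1, 2 and 10, while Rgs10 moved to rank 6 and Rgs17 to rank 7. It gave higher TPM to every member, between 1.34 and 2.07 times the first, where the median detected protein-coding gene had 1.54 times in replicate 1 and 1.59 times in replicate 2.

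Genes that lie side by side differed widely in level. Rgs2, Rgs4, Rgs7, Rgs8 and Rgs16 all lie on chromosome 1. Rgs2 opens a row of R4 genes there, and its neighbours Rgs13, Rgs1, Rgs21 and Rgs18 had means of 0.39, 0.24, 0 and 0.06 TPM, against 34.8 TPM for Rgs2. Rgs8 and Rgs16 lie 40.0 kb apart on the same strand and their levels differed 5.36-fold. Rgs4 lies 45.7 kb from Rgs5, a gene known from pericytes, which had 15.5 TPM.

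How many transcripts a gene used also differed. In 7 of the 10 genes the same transcript led in both libraries and both quantifications. The same count was not made over all genes, so whether it is usual is unknown. Rgs16, counted among these 7, has a single annotated transcript and could not differ. Rgs4-201 held 98.7 ± 0.55% of Rgs4 TPM (98.8 ± 1.04% in the second quantification) and Rgs14-201 held 94.2 ± 0.47% of Rgs14 (88.0 ± 0.15%). Rgs8-202 held 64.9 ± 0.17% of Rgs8 (56.2 ± 1.24%), and Rgs10-201 held 84.5 ± 4.19% of Rgs10 (64.1 ± 11.7%).

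In Rgs6, Rgs7 and Rgs12 no transcript held more than 45.4% on average in the first quantification. Rgs7-206 held 45.4 ± 0.71% of Rgs7 (60.7 ± 4.10% in the second quantification) among 8 transcripts. Rgs12-206 held 35.6 ± 2.00% of Rgs12 (50.2 ± 5.76%) among 18. Rgs6-208 held 38.5 ± 0.16% of Rgs6 among 22, and 28.7 ± 2.02% in the second quantification, where Rgs6-221 led in replicate 1.

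Rgs2 had 2 main transcripts. Rgs2-202, which encodes the full protein with a coding length of 633 bases, held 43.1% in replicate 1 and 46.7% in replicate 2. Rgs2-201, annotated as a target of nonsense-mediated decay with a coding length of 213 bases, held 39.3% and 31.0%. In the second quantification Rgs2-201 held 44.2% and 46.1%, and Rgs2-202 held 44.4% and 43.8%. Both transcripts lay between 31.0% and 46.7% in all 4 estimates, and which of them led depended on the quantification and the library. The transcript estimates rest on dividing shared reads, so a share by itself does not show that either RNA was translated.

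Several of the genes have more than 1 annotated coding start, and these starts give proteins with different first residues. The shares rest on dividing reads among whole transcripts, and a sequence printed here can also lie inside a transcript with a start further upstream. Sequences that open at these starts are printed here. Each runs over the first 36 coding bases with the start codon in capitals, and starts are numbered along the direction of transcription. For Rgs12, on chromosome 5, the starts are at chr5:34964875-34964910, chr5:34989815-34989850 and chr5:34999184-34999219.
Rgs12 start 1: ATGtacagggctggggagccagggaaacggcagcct
Rgs12 start 2: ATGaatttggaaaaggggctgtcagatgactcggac
Rgs12 start 3: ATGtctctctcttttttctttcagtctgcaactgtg

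Start 1 of Rgs12 opens the transcripts with the longest coding length, 4353 bases, and start 2 and start 3 open transcripts of up to 2409 and 2379 bases. The long human RGS12 protein is known to carry a PDZ domain and a PTB domain ahead of the RGS domain. Start 1 held 6.49% in replicate 1 and 19.3% in replicate 2 of the TPM on Rgs12 transcripts with an annotated start (11.8% and 22.2% in the second quantification). Start 2 held 47.0% and 43.9% (74.2% and 68.2%), and start 3 held 44.5% and 35.3% (14.1% and 9.52%). Transcripts from the downstream starts 2 and 3 together outweighed those from start 1 in all 4 estimates. The share of start 3 differed more than 3-fold between the quantifications and is uncertain. In both quantifications start 1 had the smaller share in replicate 1. Its transcript Rgs12-201 had 0.31 TPM in replicate 1 and 2.95 TPM in replicate 2 in the first quantification. Rgs12-202, the other transcript of start 1 and the one with 4353 coding bases, went the other way, at 0.89 and 0.58 TPM. The smaller share of start 1 in replicate 1 thus came from Rgs12-201 alone. Rgs12-208, annotated as a retained intron without a coding start, begins at nearly the same base as Rgs12-201. It was also higher in replicate 1, at 2.71 and 0.67 TPM. The second quantification gave the same directions. Whether these transcripts divide the same reads was not tested. The remaining starts, 4 and 5, held at most 1.95%.

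For Rgs8 the printed bases are spliced across an intron, within chr1:153665897-153670798 for start 1 and chr1:153667928-153670792 for start 2. For Rgs17 they lie within chr10:5862662-5918218 for start 1, which is also spliced, and at chr10:5862602-5862637 for start 2.
Rgs8 start 1: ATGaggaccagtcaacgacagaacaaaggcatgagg
Rgs8 start 2: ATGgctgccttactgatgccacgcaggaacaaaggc
Rgs17 start 1: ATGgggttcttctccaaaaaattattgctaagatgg
Rgs17 start 2: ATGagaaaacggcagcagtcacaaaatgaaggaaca
Start 2 of Rgs8 held 85.1% in replicate 1 and 84.0% in replicate 2 (84.2% and 87.6% in the second quantification), so the 4 estimates lay within a few points of each other. Rgs17 behaved otherwise. Start 1 of Rgs17 was listed at 0 in both libraries by the first quantification, but held 24.0% in replicate 1 and 59.8% in replicate 2 by the second. The coding start used by Rgs17 could therefore not be told from these tables.

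Rgs10 and Rgs2 lay between these cases. For Rgs10 the bases lie at chr7:128418606-128418641 for start 1 and chr7:128418079-128418114 for start 2. For Rgs2 they lie at chr1:144004083-144004118 for start 1 and, spliced, within chr1:144003032-144004022 for start 2.
Rgs10 start 1: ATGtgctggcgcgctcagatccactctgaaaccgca
Rgs10 start 2: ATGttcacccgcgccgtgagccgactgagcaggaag
Rgs2 start 1: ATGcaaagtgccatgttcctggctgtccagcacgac
Rgs2 start 2: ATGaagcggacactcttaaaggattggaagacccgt
Start 2 of Rgs10, which opens the full coding sequence of 543 bases, held 87.0% in replicate 1 and 91.7% in replicate 2 (60.2% and 75.6% in the second quantification). Start 1 of Rgs10 is annotated for 1 short, incomplete transcript of 373 bases. Start 1 of Rgs2 held 87.8% and 80.5% (94.9% and 93.8%). That share counts Rgs2-202 together with Rgs2-201, the transcript annotated as a target of nonsense-mediated decay. In the first quantification Rgs2-201 gave 12.4 of the 25.9 TPM of start 1 in replicate 1. In replicate 2 it gave 11.8 of 29.7 TPM. The upstream start of Rgs2 and the downstream start of Rgs10 led in all 4 estimates. In Rgs6 start 1 held 95.5% or more in each estimate, and Rgs4, Rgs7, Rgs14 and Rgs16 had a single annotated start.

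**Figure D2:**
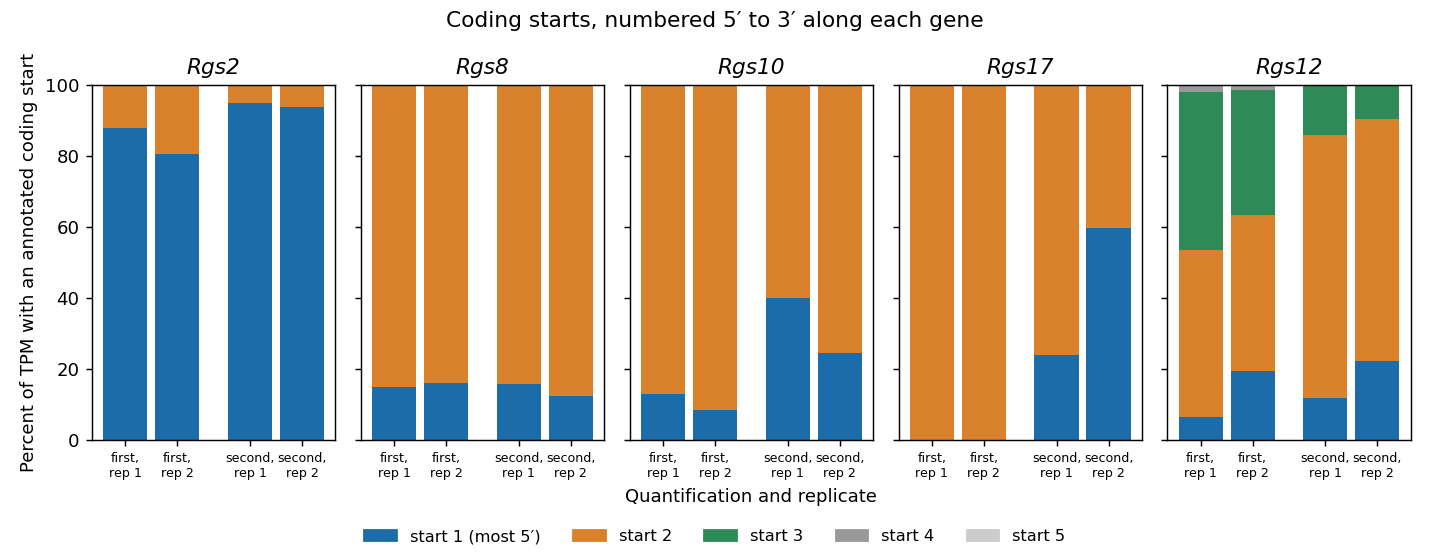
Share of each annotated coding start in 5 RGS genes, as percent of the TPM on transcripts with an annotated start, stacked to 100, for replicate 1 and replicate 2 in the first quantification and then in the second. Starts are numbered 5′ to 3′. The bars of Rgs8 are alike in all 4 estimates, those of Rgs17 and Rgs12 change between the quantifications, and Rgs12 start 1 takes the smaller share in replicate 1 in both.

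The replicates can be compared only with each other, so what follows describes these 2 libraries and no condition. The log2 ratio of counts, replicate 1 over replicate 2, was called where its 95% counting interval excluded 0. Of the 10 genes, 1 was higher in replicate 1, against 14.8% of 14450 tested nuclear protein-coding genes (18.7% of all genes tested). In the other direction 5 were lower in replicate 1, against 20.2% of protein-coding genes (17.5% of all genes tested). Genes with more counts have narrower intervals and are called more readily. The background takes in every gene with a mean count of at least 10 and was not matched to the counts of the 10 genes. The median log2 ratio was -0.12 over the 10 genes, -0.03 over protein-coding genes and -0.0008 over all genes tested. Called differences of up to 1.37-fold thus separated libraries of the same group, and the intervals cover counting error only.

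For Rgs2 the counts were 752 in replicate 1 and 1330 in replicate 2, which gave a log2 ratio of -0.45 (95% interval -0.59 to -0.32), or 1.37-fold higher in replicate 2. Rgs14 had 681 and 1146 counts, a ratio of -0.38 (-0.52 to -0.24), or 1.30-fold higher in replicate 2. Rgs2 was below 95.6% of tested protein-coding genes in this ratio and Rgs14 below 94.1%. Rgs4 followed with 6319 and 9523 counts and a ratio of -0.22 (-0.27 to -0.18). Its interval was the narrowest of the 10, as its counts were the highest.

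Rgs8 had 1676 and 2380 counts and a ratio of -0.14 (-0.23 to -0.05), and Rgs17 had 2541 and 3535 counts and a ratio of -0.11 (-0.18 to -0.03). Both intervals ended near 0, and neither gene was called when the spike-ins set the scale. That scaling raised the median of all genes tested by 0.10 on the log2 scale, so it moved these genes together with the others. Rgs6 was the gene higher in replicate 1, with 1457 and 1635 counts and a ratio of 0.20 (0.10 to 0.30).

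Rgs7 had 1668 and 2077 counts and a ratio of 0.05 (-0.04 to 0.15), and Rgs12 had 1080 and 1477 counts and a ratio of -0.08 (-0.20 to 0.03). Rgs10 and Rgs16 had few counts, 231 and 338 for Rgs10 and 172 and 206 for Rgs16, with ratios of -0.18 (-0.43 to 0.06) and 0.11 (-0.19 to 0.41). These 4 intervals held 0, and for Rgs10 and Rgs16 a difference of the size of that of Rgs4, in one direction or the other, lay within the interval. Rgs7 was called higher under spike-in scaling, and Rgs12 lower in the second quantification.

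**Figure D3:**
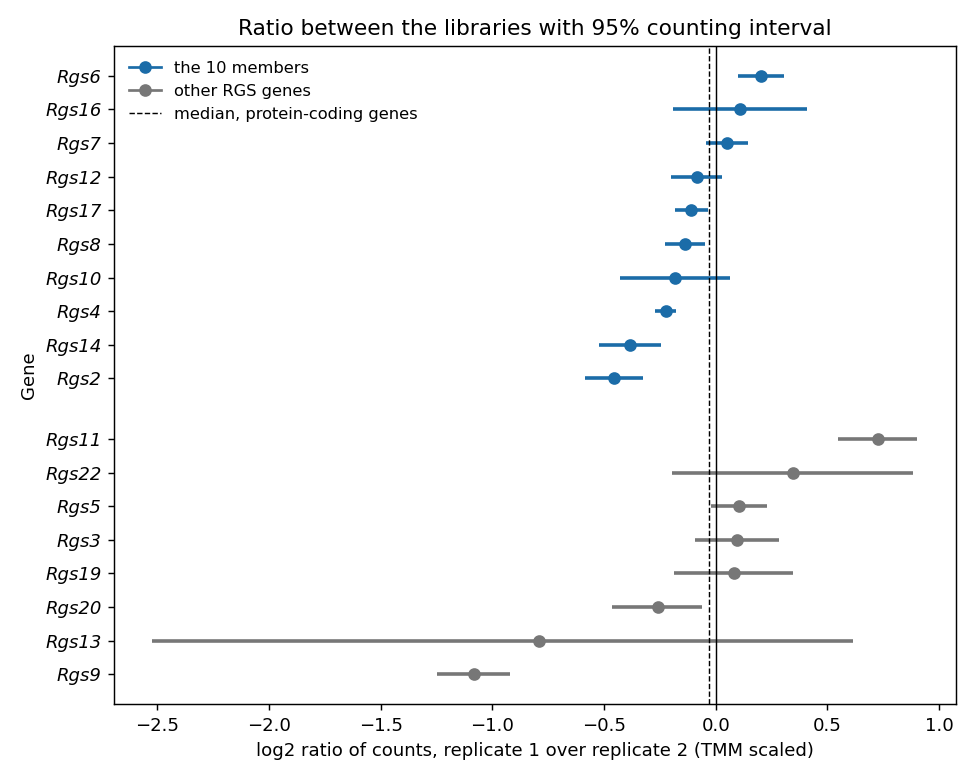
Log2 ratio of TMM-scaled counts, replicate 1 over replicate 2, for the 10 RGS genes (top) and the 8 other RGS genes with enough counts (bottom). Points are ratios, lines are 95% counting intervals, the solid vertical line marks 0 and the dashed line the median of tested protein-coding genes, -0.03. Rgs2 and Rgs14 lie farthest to the left among the 10, Rgs6 lies to the right, and the intervals of Rgs9 and Rgs11 lie beyond the points of all 10, on opposite sides.

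Outside the set, the largest called differences belonged to the other R7 genes. Rgs9, known as the R7 member of striatal neurons, had 12.4 TPM in replicate 1 and 24.3 TPM in replicate 2, a log2 ratio of -1.08 (-1.25 to -0.92). Rgs11 went the other way, with 28.0 and 14.3 TPM and a ratio of 0.72 (0.55 to 0.90). Rgs20 was lower in replicate 1 (-0.26), the intervals of Rgs3, Rgs5, Rgs13, Rgs19 and Rgs22 held 0, and Rgs1, Rgs18 and Rgs21 had too few counts to be tested. Of the R7 partners tested, Gnb5 (-0.30), Rgs7bp (-0.06) and Gpr158 (-0.06) were lower in replicate 1. By TPM, Rgs7bp and Gpr158 were the higher in replicate 1, so their direction depends on the measure. The median log2 ratio of the deposited TPM was 0.12 over 17929 genes, so TPM shifted other genes in that direction too. Of 7 tested G alpha genes 4 were lower and none was higher, within a range of -0.13 to 0.0002. Gnao1 and Gnai1, both called lower, likewise had the higher TPM in replicate 1.

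Genes listed as striatal also differed between the libraries, and the tissue that gave their RNA was not tested. All 10 striatal genes were detected in both libraries, at a summed 212 TPM in replicate 1 and 423 TPM in replicate 2, and all 10 were lower in replicate 1 with a median log2 ratio of -1.18 and a range of -2.46 to -0.81. The 9 cortical neuron genes, all detected, had medians of 39.0 and 34.0 TPM, with 4 higher and 1 lower in replicate 1 and a median ratio of 0.11. The ratios of Rgs2, Rgs4, Rgs8, Rgs14 and Rgs17 lay between -0.45 and -0.11. Whether the difference in the striatal list has a part in the lower values of these 5 RGS genes in replicate 1 was not tested.

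The medians of the other lists stood closer to 0 than that of the striatal genes. Microglial genes had a median ratio of -0.12 with 3 of 10 lower in replicate 1, oligodendrocyte genes -0.18 with 5 of 7 lower, and interneuron genes -0.09 with 3 of 5 lower. Astrocyte genes had a median ratio of -0.05 with 1 of 6 higher and 2 lower, and pericyte and smooth muscle genes 0.07 with 1 of 6 higher. Hippocampal genes had a median ratio of -0.02, with 1 of 8 lower in replicate 1, Necab2 at -0.43. The other 7 intervals held 0, with ratios between -0.17 for Cacng5 and 0.70 for Dsp. The 11 immediate early genes, which like Rgs2 respond to neuronal activity, had a median ratio of -0.03 with 2 higher and 3 lower. Thalamic genes had a median ratio of -0.05 with 1 of 5 higher and 2 lower, and of 4 cerebellar genes tested none was called, with a median ratio of -0.10. The part of these lists in the ratios of the RGS genes was not tested.

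Gene length moved with the ratio as well. Protein-coding genes spanning under 20 kb had a median log2 ratio of -0.07 (6128 genes), those of 20 to 200 kb -0.008 (7374 genes) and those of 200 kb or more 0.03 (948 genes). Rgs6 and Rgs7 span 574 and 433 kb, whereas Rgs2 and Rgs4 span 4.8 and 6.2 kb. Rgs16 is as short, at 5.1 kb, and its ratio of 0.11, with an interval that held 0, was positive. The part of gene length in the ratios of the RGS genes was not tested.

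Transcripts annotated as retained introns exist for 7 of the 10 genes and made up the larger share in replicate 1 in all 7, against 82.4% of 6239 protein-coding genes with such transcripts at 5 TPM or more. The count is near that background and is not particular to the RGS genes. Rgs12 had the most in the first quantification, 15.5% of its TPM in replicate 1 and 9.83% in replicate 2. Rgs6 had 8.23% and 4.22%, Rgs2 6.17% and 3.53%, and Rgs7 4.64% and 2.37%. Rgs14 had 6.11% and 5.42%, Rgs10 2.23% and 1.11%, and Rgs4, the most abundant gene, 1.68% and 0.90%. Over all such genes the medians were 13.1% in replicate 1 and 8.89% in replicate 2.

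In the second quantification 6 of the 7 genes had the larger share in replicate 1, against 80.0% of protein-coding genes, and Rgs14 had the smaller, 7.35% against 9.24%. Rgs12 had 8.77% in replicate 1 and 1.4% in replicate 2 there, so in replicate 2 it lay below Rgs14. For Rgs12 a single transcript, Rgs12-208, took most of the difference, with 2.71 TPM in replicate 1 and 0.67 TPM in replicate 2. In Rgs7 it was the single-exon transcript Rgs7-204, 3678 bases long with 3453 of them outside coding exons, at 2.35 and 1.07 TPM. Another unspliced annotation on the same strand inside Rgs7, 5730408A14Rik, named after its value was seen, stood at 3.24 and 1.32 TPM and may share reads with the introns of Rgs7. The genes annotated on the opposite strand of the 10 stayed at or below 0.19 TPM.

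**Figure D4:**
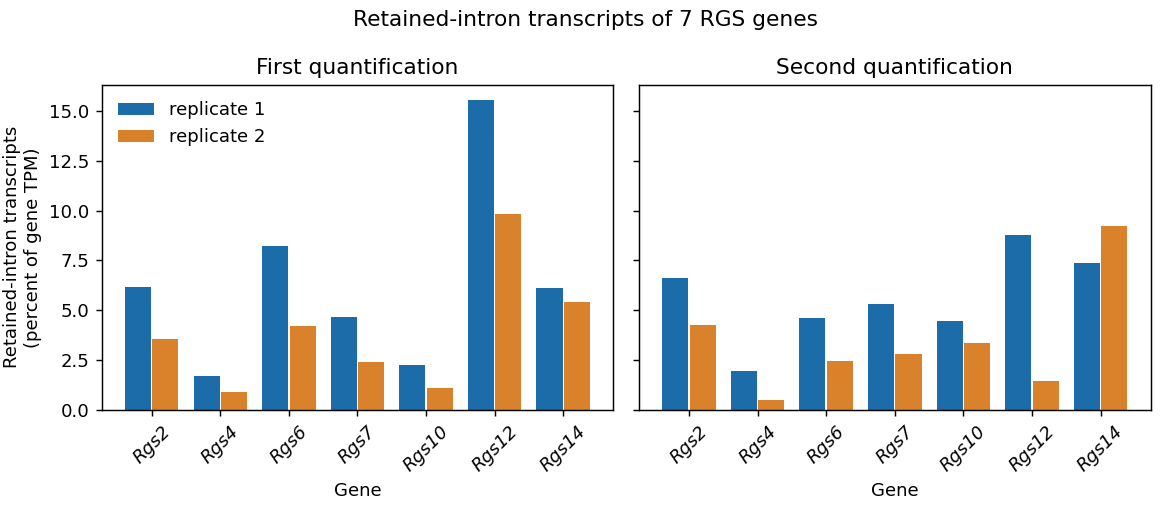
Share of transcripts annotated as retained introns in the TPM of the 7 RGS genes that have such transcripts, in percent, for replicate 1 (left bar) and replicate 2 (right bar) in the first quantification (left panel) and the second (right panel). Rgs12 has the largest share in replicate 1 in both panels, and each gene except Rgs14 in the second panel has the larger share in replicate 1.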

How the data were processed

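Reads of 2 total RNA libraries were assigned on mm10 (GRCm38) to the GENCODE M21 annotation, per the deposited file lists. The sources used here name no aligner, version or use of strand. Both the deposited expected counts (RSEM layout) and the deposited estimated counts (kallisto layout, the second quantification) divide reads among transcripts, so overlapping genes and similar transcripts share them. TPM was deposited as an abundance per length, scaled over all listed features. The deposited bounds of its credibility interval were read as a score in TPM units, at a level that no source states. Transcript shares are the deposited percent of gene TPM. CAST reads were assigned on the reference genome, and any loss was not measured.

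The totals over annotated genes were 22827996 expected counts for replicate 1 and 29897545 for replicate 2. Left out were 97 spike-ins (0.435% and 0.460%) and 26248 tRNA entries that name no gene (3 and 4 counts). Counts were rounded, a mean count of at least 10 was required, 0.5 was added, and TMM factors (1.008 and 0.992; edgeR 4.0.16, R 4.3.3) set the scale. Exact Clopper-Pearson intervals at 95% cover counting error only. With 1 group of 2 libraries no p-value is given. Every member is named, and genes of the other lists are named or counted. Members and lists were chosen with earlier results of these data known, and retained-intron shares, coding starts and span bins after seeing the data. Coding starts come from the GENCODE annotation and transcripts. A planned comparison of protein sequences was not made. Alternatives covered DESeq2 1.42.0 size factors, spike-in scaling, filters, the count added, other abundance columns, the second quantification and single replicates. The ratio method was tested on simulated data.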

Additional observations from a re-analysis of the deposited data

How the results depend on the processing

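All 10 genes were detected in each setting with a threshold of 1 TPM or none, and 9 at 5 TPM. Counts of called pairs lay between 21 and 33, against 26. Under spike-in scaling 2 genes were higher in replicate 1, against 1, and 3 were lower, against 5. Rgs7 was then called higher (0.15), and Rgs8 (-0.04) and Rgs17 (-0.007) were no longer called. In other scalings 1 was higher and 4 to 6 were lower. Ratios of Rgs2 (-0.48 to -0.28), Rgs14 (-0.45 to -0.27), Rgs4 (-0.28 to -0.11) and Rgs6 (0.13 to 0.30) kept their sign in every setting. With protein-coding transcripts only, an alternative added after seeing the data, Rgs8 (-0.07) and Rgs17 (-0.04) were not called and Rgs12 (-0.15) was. In the second quantification Rgs12 (-0.13) was called and Rgs7 (-0.03, not called) changed sign. The deposited TPM ratio gave no call. It raised the median of all genes tested to 0.12, and Rgs12 (0.16, not called) changed sign with it. The median level of the 10 genes was 26.9 TPM, 27.3 with the posterior mean, 45.8 in the second quantification and 59.2 when rescaled over nuclear protein-coding genes, and 27.0 and 26.9 in replicate 1 and replicate 2 alone. The cause of these shifts was not tested. No paired analysis was possible because the series holds 1 group. Depth limits Rgs10 (231 and 338 counts) and Rgs16 (172 and 206).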
